A study of Mus musculus with 49 samples.

Results

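The mesothelium of the bladder surface was followed through 6 marker genes, Msln, Upk3b, Wt1, Lrrn4, Gpm6a and Rspo1, in whole urinary bladders of mice that drank arsenate. The genes were listed by name as mesothelial markers, with earlier results of these data known. Each was read from its probe set of highest mean among probe sets annotated to 1 gene. All 6 passed the filter on dim genes, and they stand among 14624 genes tested and 18193 genes with such a probe set. Values are given on the scale log2(signal + 16), on which a step of 1 is a doubling of a bright signal and 4 is the floor. A gene is called changed where limma's Benjamini-Hochberg adjusted p, taken over all 14624 genes, was under 0.05.

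The mesothelium is a single sheet of flat cells that covers the organs and walls of the body cavities. On the bladder it forms the serosa of the dome, outside the smooth muscle, while the urothelium lines the lumen. Mesothelial cells keep features of both epithelium and mesenchyme, secrete lubricating fluid, and carry surface glycoproteins and transcription factors that other bladder layers largely lack. In whole-organ RNA they are a thin minority layer, so fewer mesothelial cells and less RNA per cell cannot be told apart.

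Female C57Bl/J mice received arsenate, a pentavalent inorganic arsenic salt, in their drinking water at 0, 0.5, 2, 10 or 50 ppm. Euthanasia with CO2 followed 1 week of exposure in mice aged 76 days and 12 weeks of exposure in mice aged 155 days. Each of the 49 Affymetrix Mouse430_2 arrays holds the bladder RNA of 1 mouse, 5 per group and 4 at 0.5 ppm for 1 week. The controls drank water without arsenate, and no group carried a transgene or a deletion per the labels. Sample labels open with a number that is common to a whole group and has no stated meaning, so dose and whatever this number stands for cannot be told apart. Age and length of treatment differ together between the harvests and cannot be told apart either.

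The arrays had been scaled to a common trimmed mean of 500.003 to 500.004, and no pair of arrays held identical values. Correlations between arrays over all genes ran from 0.902 to 0.984. The labelled tissue carried its defining markers: mean levels were 14 for Upk2, a uroplakin of the urothelial surface, 13.33 for the basal keratin Krt5 and 13.79 for Myh11, the smooth muscle myosin. RNA integrity numbers lay under 8 on 3 arrays, all of the 2 ppm group at 1 week, and 2 arrays at 10 ppm for 1 week had none. Poly-A spike RNA, a bacterial control added to the sample before labelling, averaged 10.67 to 11.05 in the 1-week groups and 9.65 to 10.71 in the 12-week groups, with 9.65 at 10 ppm and 9.84 at 50 ppm. The female reproductive tract, which lies beside the bladder, was looked at through a list of genes. Of these Pax8, Foxj1 and Amh lay below the filter. The 7 others passed it, with mean levels from 5.94 for Pgr to 9.24 for Esr1 and 10.29 for Hoxa11. Of these 7, 1 was called in the water contrast, the steroid enzyme Cyp11a1 at 0.62 ± 0.2 (adjusted p 0.034 in limma). That is near the 13.4% of all genes called there. Hoxa11 was called in the 12-week dose trend at -0.09 ± 0.03 per rank (adjusted p 0.0418 in limma), where 5.26% of all genes were. Carry-over of this tissue was not tested.

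RefSeq (GRCm38.p6) gave a promoter window, the 250 bases before the annotated start, for 4 of the 6 members. Those of Lrrn4 and Rspo1 are shown, since their difference from water at 0.5 ppm was called changed between harvests. That of Upk3b is shown since it varied with other genes than the rest. All run 5′ to 3′ on the gene's strand. Both strands of the windows were searched for GGGCGG (a core of Sp and KLF sites), GCGNGGGCG (an element bound by EGR factors and by WT1), GGAATG (the core bound by TEAD factors) and TATAAA (the TATA box). Capitals mark a GGAATG or its reverse complement. The Lrrn4 window is chr2:132880863-132881112 on the minus strand, that of Rspo1 is chr4:124986180-124986429 on the plus strand, and that of Upk3b is chr5:136038246-136038495 on the plus strand.
Lrrn4: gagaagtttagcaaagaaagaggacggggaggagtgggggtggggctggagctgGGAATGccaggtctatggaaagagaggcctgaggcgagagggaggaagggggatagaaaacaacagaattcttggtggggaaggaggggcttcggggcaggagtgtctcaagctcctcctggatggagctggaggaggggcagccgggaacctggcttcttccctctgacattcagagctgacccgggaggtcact
Rspo1: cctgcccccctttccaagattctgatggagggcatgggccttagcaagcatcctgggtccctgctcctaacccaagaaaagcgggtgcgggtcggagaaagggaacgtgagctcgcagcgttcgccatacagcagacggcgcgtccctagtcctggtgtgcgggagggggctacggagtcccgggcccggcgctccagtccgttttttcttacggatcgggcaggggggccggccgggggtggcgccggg
Upk3b: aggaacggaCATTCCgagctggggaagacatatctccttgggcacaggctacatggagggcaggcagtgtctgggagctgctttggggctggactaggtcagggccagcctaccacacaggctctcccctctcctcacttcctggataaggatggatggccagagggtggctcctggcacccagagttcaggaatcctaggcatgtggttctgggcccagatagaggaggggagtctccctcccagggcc
The Lrrn4 window holds GGAATG on the gene's strand, its first base 196 bases before the start. The Upk3b window holds it on the opposite strand, 241 bases before the start, and 12.6% of all 32851 windows hold at least 1 such match. The Rspo1 window has a GC content of 66.8%, against a median of 52.4% over all windows, and the letters of none of the 4 motifs occur in it. Over all windows the share with a match was 32.7% for GGGCGG, 4.7% for GCGNGGGCG and 12.4% for TATAAA, and none of these other 3 motifs occurs in the windows shown. A match is a run of letters and not a site shown to be bound.

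The members were measured on every array, and the group means of all but Upk3b spanned more than those of the median gene. All 6 probe sets lay above the 40th percentile of their array in 49 of 49 arrays. The span from the lowest to the highest of the 10 group means was 0.72 for Msln, 0.27 for Upk3b, 0.89 for Wt1, 0.74 for Lrrn4, 0.75 for Gpm6a and 0.81 for Rspo1, against a median of 0.54 over all genes. The spread between mice of a group was a within-group SD of 0.34 for Msln, 0.36 for Wt1, 0.24 for Lrrn4, 0.42 for Gpm6a, 0.34 for Rspo1 and 0.15 for Upk3b, against a median of 0.26. Among the 1000 genes nearest in level, 93.2% had a smaller spread than Msln and 97.8% a smaller spread than Gpm6a, while Upk3b (47.6%) and Lrrn4 (49.7%) were ordinary.

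**Figure D1:**
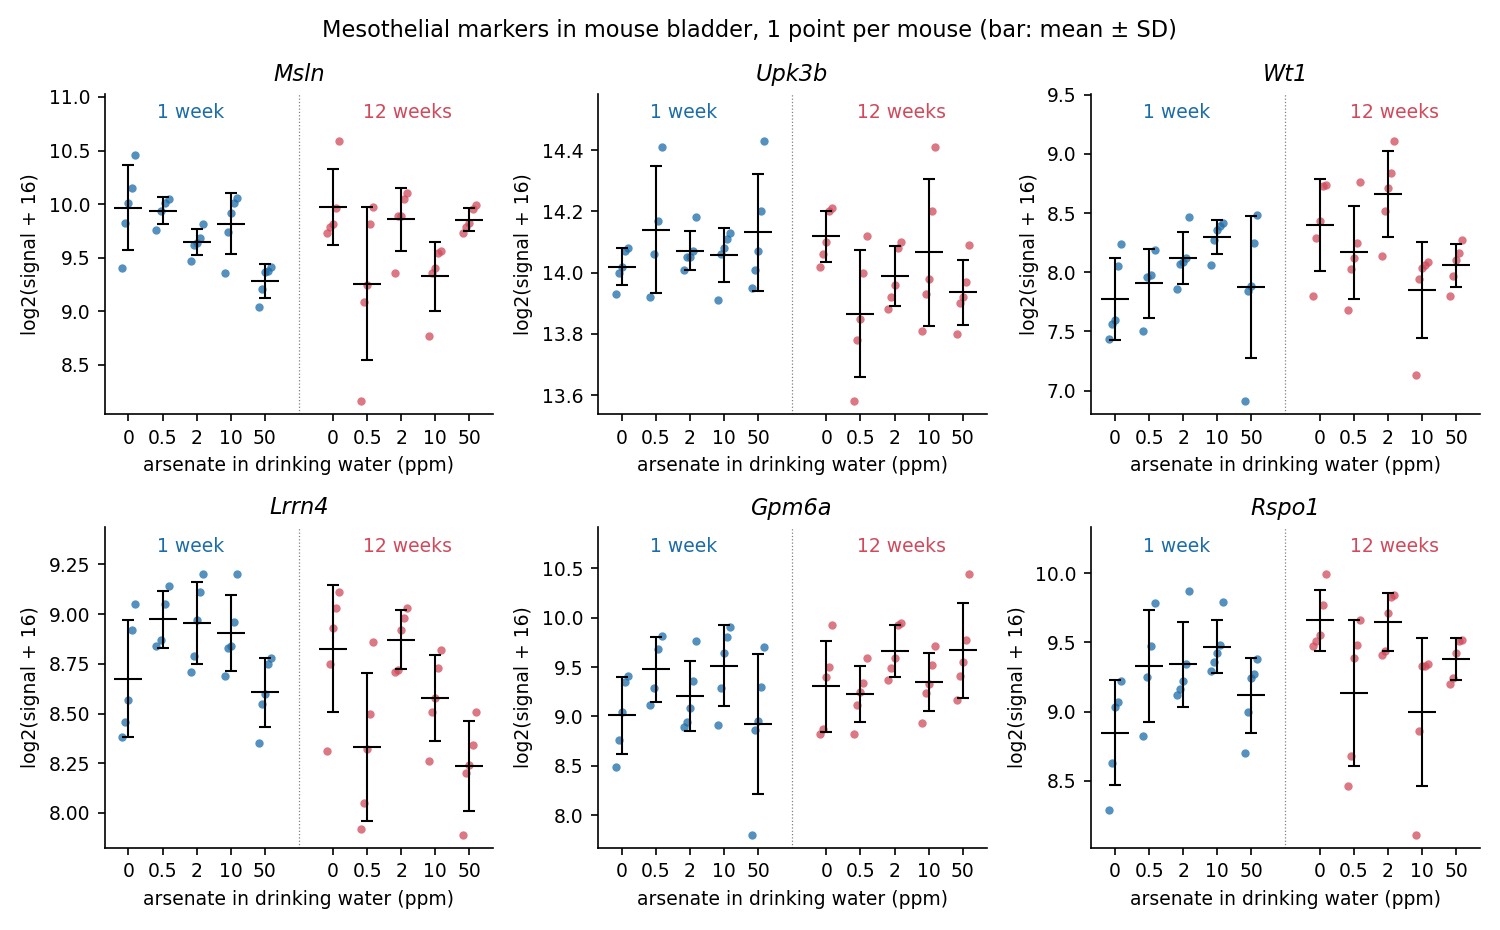
Levels of the 6 genes, log2(signal + 16), in each mouse (points) by arsenate dose in ppm and harvest, with the group mean and SD (bars); each panel has its own vertical axis, which does not start at 0. Rspo1 is lowest in the 1-week water group (mean 8.85) and highest in the 12-week water group (mean 9.66), and the 12-week 0.5 ppm group is widely spread for Msln (SD 0.72).

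Rspo1 and Wt1 were higher in the water controls of the 12-week harvest than in those of the 1-week harvest. Rspo1, a secreted R-spondin that strengthens WNT signalling, rose 1.76-fold and Wt1, the zinc finger transcription factor that marks mesothelium and its precursors, rose 1.54-fold. The other 4 members were not called. Over all genes 13.4% were called in this contrast and 6.26% were called higher.

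Rspo1 read 9.07, 8.63, 8.29, 9.22 and 9.03 in the 5 mice on water for 1 week. In the 5 on water for 12 weeks it read 9.77, 9.47, 9.51, 9.99 and 9.55. Every 12-week mouse lay above every 1-week mouse, a separation that 4.79% of all genes showed in this direction and 9.53% in either. The difference was 0.81 ± 0.21 (SE, 5 mice against 5), with an adjusted p of 0.00595 in limma, and it was called without each of the 10 mice in turn (0.67 to 0.91).

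Wt1 read 8.24, 7.6, 7.44, 7.56 and 8.05 at 1 week and 8.43, 7.8, 8.74, 8.73 and 8.29 at 12 weeks. The groups overlap through the 12-week mouse at 7.8. The difference of 0.62 ± 0.22 had an adjusted p of 0.0489 in limma, so the call was close to the threshold. It was called in 3 of the 10 fits that left out 1 mouse. The 7 mice whose removal ended it were replicates 1 (adjusted p 0.0705), 3 (0.14), 4 (0.123) and 5 (0.0685) of the 12-week water group and replicates 2 (0.107), 3 (0.137) and 4 (0.109) of the 1-week water group.

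The remaining members differed less between the water groups. Gpm6a, a membrane glycoprotein of neurons that is also a mesothelial marker, differed by 0.29 ± 0.25. Lrrn4, a leucine-rich repeat membrane protein, differed by 0.15 ± 0.15, and Upk3b, the uroplakin that mesothelium shares with urothelium, by 0.1 ± 0.09. Msln, the surface glycoprotein mesothelin, differed by 0.01 ± 0.2. None of these 4 passed the test, although Upk3b was called under quantile normalization (0.21 ± 0.07, adjusted p 0.0393 in limma) and through its other probe set (0.31 ± 0.11, adjusted p 0.0428).

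Markers of other layers also differed between the same water groups. Fibroblast genes fell for 7 of 8 measured, smooth muscle genes for 5 of 10 and liver genes for 6 of 7, while 2 of 10 urothelial genes rose, where 7.09% of all genes were called lower. The collagen Col1a1 fell by 1.71, the smooth muscle regulator Myocd fell by 1.16 and albumin, Alb, fell by 3.56, while the urothelial transcription factors Gata3 and Grhl3 rose by 0.55 and 0.65. Of the 8 genes shared by mesothelium and urothelium, Cdh1 (0.43, adjusted p 0.00426) and Ezr (0.49, adjusted p 0.000546) rose. These examples were chosen after their values were seen. The mean level of the fibroblast list ran from 13.58 to 13.69 in the 1-week water mice and from 12.57 to 13.13 in the 12-week water mice, and that of smooth muscle from 13.35 to 13.73 and from 12.88 to 13.31. The part of a changed makeup of the tissue in the Rspo1 and Wt1 differences was not tested.

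At 1 week, Msln at 50 ppm was the only member called at any dose. It fell 1.61-fold against the water group of the same harvest, where 0.335% of all genes were called and 0.246% called lower. The other 5 members did not pass the test at 50 ppm, with changes of -0.09 to 0.27.

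Msln read 9.82, 10.15, 9.4, 10.01 and 10.46 in the 1-week water mice. At 50 ppm it read 9.21, 9.37, 9.38, 9.41 and 9.04. The groups just overlap, at 9.41 against 9.4, and all 5 mice at 50 ppm lay below the water mean. The change was -0.68 ± 0.15 with an adjusted p of 0.0302 in limma.

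The call on Msln was lost in 6 of the 10 fits that left out 1 mouse, in which the change ran from -0.71 to -0.56. Those mice were replicates 2 (adjusted p 0.0926), 4 (0.0665) and 5 (0.11) of the water group and replicates 1 (0.0653), 3 (0.0577) and 5 (0.0638) of the 50 ppm group. With all 49 arrays in 1 fit the adjusted p was 0.13. In the dose trend at 1 week 0 of 6 members were called, against 0.267% of all genes. An unadjusted p under 0.05 was held by 1 member and by 1421 of 14624 genes. The slope of Msln over the dose ranks was -0.15 ± 0.04 per rank with an adjusted p of 0.0803 in limma, so it did not pass. It passed without replicate 3 of the water group and without replicate 1 or 5 of the 10 ppm group.

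Liver genes fell in the same comparison, 5 of 7 with a median of -2.73, from a list mean of 7.68 to 10.19 in the water mice to 6.29 to 7.4 at 50 ppm. Within groups, Msln and the liver mean correlated at r = -0.04 over 49 mice (Spearman's rho 0.06, permutation p 0.777 and 0.702). The value was 0.1 within the 1-week and -0.4 within the 12-week mice. A value within groups leaves out the shift between groups and so cannot speak to it. The part of the liver transcripts in the Msln result was not tested.

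At the 3 lower doses for 1 week no member was called in limma, and most lay above water. At 0.5, 2 and 10 ppm, 5 of 6 differences were positive, Msln being the exception, and their medians were 0.22, 0.24 and 0.36. The members with an unadjusted p under 0.05 numbered 2, 3 and 2, and the genes 1823, 867 and 2505 of 14624. Over all genes the share called was 0.0479% at 0.5 ppm, 0% at 2 ppm and 0.78% at 10 ppm. Urothelial genes were positive for 10, 7 and 10 of 10 at these doses (medians 0.25, 0.06 and 0.18), and uroplakins for 6, 4 and 6 of 6. Smooth muscle genes were negative for 8, 10 and 10 of 10 (medians -0.25, -0.13 and -0.14). None in these 3 lists was called in limma, and their part in the position of the members was not tested.

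Rspo1 separated fully from water at 10 ppm for 1 week. It read 9.79, 9.48, 9.29, 9.42 and 9.36 there, above the highest water mouse at 9.22, a separation shown by 2.63% of genes in this direction and 5.7% in either. The difference was 0.62 ± 0.18 with an adjusted p of 0.084 in limma and so was not called, except with array weights. Wt1 at the same dose read 8.42, 8.36, 8.06, 8.39 and 8.27, and its difference of 0.52 ± 0.21 had an adjusted p of 0.201. These differences are taken against the water group in which both genes were lowest of all 10 groups.

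At 12 weeks the sides were mostly reversed, and Lrrn4 at 50 ppm was the member called. It fell 1.51-fold in a comparison in which 4.06% of all genes were called and 1.77% called lower. The other 5 members were not called at 50 ppm, from -0.34 ± 0.21 for Wt1 to 0.37 ± 0.21 for Gpm6a.

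Lrrn4 read 9.11, 8.31, 8.75, 9.03 and 8.93 in the 12-week water mice. At 50 ppm it read 7.89, 8.34, 8.2, 8.51 and 8.24. The groups overlap through the water mouse at 8.31, and all 5 treated mice lay below the water mean. The change was -0.59 ± 0.17 with an adjusted p of 0.0424 in limma.

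The call was kept in 1 of 10 fits that left out 1 mouse, the fit without replicate 2 of the water group, the mouse at 8.31 (-0.72, adjusted p 0.0474). In the other 9 fits the change stayed at -0.66 to -0.5, with an adjusted p of 0.0534 to 0.101. The 50 ppm mice also had less poly-A spike signal, 9.51 to 10.46 against 10.21 to 11.17 in the water mice. With the spike level as a covariate, Lrrn4 was at -0.66 ± 0.25 with an adjusted p of 0.353, and 1 gene in all was called in place of 594. Smooth muscle genes were positive for 10 of 10 in the same comparison (median 0.32), and Synm was called at 0.96 ± 0.25 (adjusted p 0.0337). The lymphatic marker Lyve1, at 0.87 ± 0.23 (0.0357), and the adipocyte gene Cidea, at 1.4 ± 0.4 (0.0458), were called higher too. The part of these other cell types in the Lrrn4 result was not tested.

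At 0.5 ppm for 12 weeks all 6 members lay below water, with a median of -0.38, while the median over all genes was 0. None was called in limma, where 0.527% of all genes were. An unadjusted p under 0.05 was held by 4 members and by 2778 of 14624 genes. Msln was -0.72 ± 0.23 (adjusted p 0.0984), Lrrn4 -0.5 ± 0.17 (0.108), Rspo1 -0.52 ± 0.21 (0.179), Upk3b -0.25 ± 0.1 (0.169), Wt1 -0.23 ± 0.21 (0.581) and Gpm6a -0.08 ± 0.21 (0.868). The sign of Gpm6a turned when some single mice were left out.

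Genes of other layers lay to 1 side in the same comparison. Urothelial genes were negative for 10 of 10 (median -0.16), uroplakins for 6 of 6 (-0.22) and the genes that mesothelium shares with urothelium for 8 of 8 (-0.27). Fibroblast genes were positive for 8 of 8 (0.22), and none in these 4 lists was called in limma. Cidea, at 1.8 ± 0.4 (adjusted p 0.04), and Myocd, at 0.77 ± 0.18 (0.0468), were called higher. The part of tissue makeup in the position of the members was not tested.

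The mice of the 0.5 ppm group at 12 weeks were uneven for Msln. It read 8.16, 9.97, 9.81, 9.25 and 9.09, against 9.73, 9.81, 9.96, 10.59 and 9.79 on water. The first of these mice was also the lowest of its group for 4 of the 6 members. Msln was called there without replicate 2, the highest mouse, and with all 49 arrays in 1 fit.

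At 10 ppm for 12 weeks an unadjusted p under 0.05 was held by 3 of 6 members and by 2347 of 14624 genes. After adjustment 0 of 6 members were called in limma, and 0.335% of all genes were. Rspo1 and Msln nonetheless separated fully from water, as 1.69% of genes did in this direction and 3.2% in either. Rspo1 read 9.34, 8.11, 9.33, 9.33 and 8.86, a difference of -0.67 ± 0.21 (adjusted p 0.128). Msln read 9.56, 8.77, 9.54, 9.4 and 9.36, a difference of -0.65 ± 0.23 (adjusted p 0.171). Both were lowest in the same mouse, replicate 2, which was also lowest for Wt1 at 7.13. This group had the lowest mean spike level of all 10, and no member was called there with the spike level as a covariate either.

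At 2 ppm for 12 weeks 3 members lay above and 3 below water, with a median of 0.02. No member was called in limma, and 0.0137% of all genes were. No member had an unadjusted p under 0.05 either, while 1449 of 14624 genes did. The 12-week dose trend called 0 of 6 members, against 5.26% of all genes. In it 1 member and 3294 of 14624 genes had an unadjusted p under 0.05. The differences from water did not follow dose order at 12 weeks: they were negative for most members at 0.5, 10 and 50 ppm and divided at 2 ppm.

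**Figure D2:**
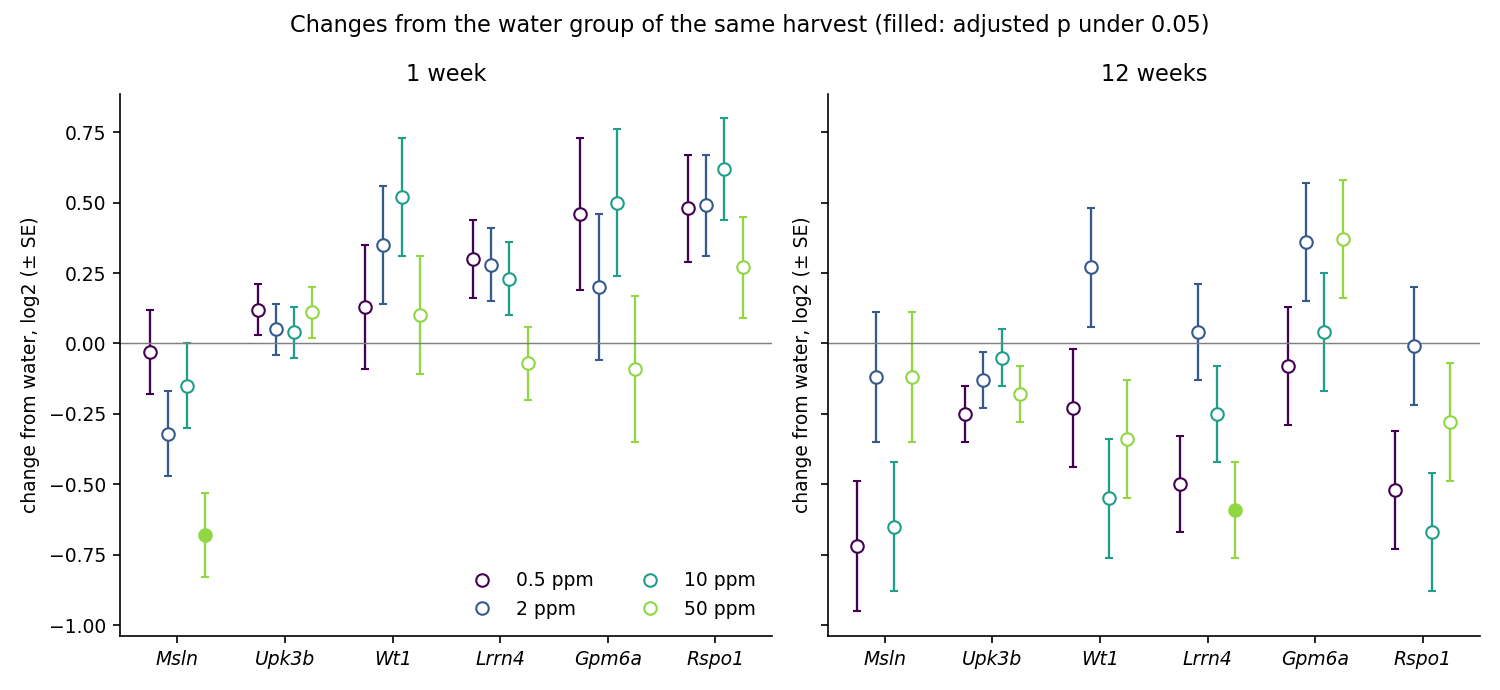
Change of each gene from water, within each harvest, log2 with its SE, at 0.5, 2, 10 and 50 ppm; filled points had an adjusted p under 0.05. At 1 week most points lie above 0 apart from Msln, which is lowest at 50 ppm (-0.68), and at 12 weeks the 0.5 and 10 ppm points of Msln, Lrrn4 and Rspo1 lie below 0.

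The difference between harvests in the effect of arsenate was tested for each dose over all 49 arrays. Rspo1 passed at 0.5 and at 10 ppm, and Lrrn4 at 0.5 ppm. All 6 members had a negative difference at both doses, that is, a lower position against water at 12 weeks than at 1 week. The medians were -0.62 at 0.5 ppm and -0.49 at 10 ppm, against -0.02 and -0.04 over all genes, and all 6 stayed negative under quantile normalization. Over all settings, single mice left out among them, Upk3b at 10 ppm (-0.09 ± 0.13) did not keep its sign. It ran from -0.2 to 0.16 there, and the other differences at these doses stayed negative. The share of genes called was 4.61% at 0.5 ppm (1.44% lower) and 1.37% at 10 ppm (0.438% lower).

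For Rspo1 at 10 ppm the effect was 0.62 ± 0.18 at 1 week and -0.67 ± 0.21 at 12 weeks. The difference of -1.29 ± 0.29 had an adjusted p of 0.0126 in limma. It was called in all 20 fits that left out 1 mouse (-1.38 to -1.07) and in all 11 other settings tried, among them the spike level as a covariate (-1.42 ± 0.35). The rise of Rspo1 between the water groups enters this value: the 10 ppm groups had means of 9.47 and 8.99, and the water groups 8.85 and 9.66.

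For Rspo1 at 0.5 ppm the effect went from 0.48 ± 0.19 to -0.52 ± 0.21. The difference of -1.01 ± 0.3 had an adjusted p of 0.0411 and was called in 8 of 19 fits that left out 1 mouse, with an adjusted p of up to 0.118. Of 11 other settings 9 kept it, and it was lost with no filter (adjusted p 0.0513) and with the mean of probe sets (0.0515), at -1.01 in both. It was lost also without replicate 1 or 5 of the 12-week 0.5 ppm group, without replicate 2, 3 or 5 of the 1-week 0.5 ppm group, without replicate 1, 3, 4 or 5 of the 12-week water group and without replicate 2 or 3 of the 1-week water group. The change in those fits ran from -1.04 to -0.84.

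For Lrrn4 at 0.5 ppm, the 1-week mice read 9.14, 8.84, 8.87 and 9.05 against 8.57, 8.92, 8.38, 8.46 and 9.05 on water. The 12-week mice read 8.05, 8.5, 8.86, 8.32 and 7.92 against the water values given above. The groups overlap in both harvests. The effect went from 0.3 ± 0.14 to -0.5 ± 0.17, a difference of -0.8 ± 0.22 with an adjusted p of 0.0285 in limma. It was called in all 11 other settings and in 12 of 19 fits that left out 1 mouse. The mice whose removal ended the call were replicates 1 and 5 of the 12-week 0.5 ppm group, 2 and 5 of the 1-week 0.5 ppm group, 5 of the 12-week water group, and 3 and 4 of the 1-week water group (adjusted p 0.0537 to 0.0763).

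Wt1 at 10 ppm came next, with effects of 0.52 ± 0.21 and -0.55 ± 0.21 and a difference of -1.07 ± 0.31 (adjusted p 0.0643). It was called under quantile normalization (-1.17, adjusted p 0.0353). Upk3b at 0.5 ppm differed by -0.37 ± 0.14 (adjusted p 0.103) through its brighter probe set and by -0.72 ± 0.16 (0.00684) through its other one. At 2 ppm 0 of 6 members and 0% of genes were called in limma. No member had an unadjusted p under 0.05 there, while 869 of 14624 genes did. At 50 ppm 0 of 6 members were called, against 7.36% of all genes. For that dose 2 members and 3673 of 14624 genes had an unadjusted p under 0.05. All of these differences share the same 2 water groups with each other and with the water contrast, so their values are not separate pieces of evidence.

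Other cell types moved alongside in the 0.5 ppm difference. Smooth muscle genes were higher for 3 of 10 (median 0.55, Synm and Myocd 1.33 each and Lmod1 1.06), and urothelial genes lower for 2 of 10 (median -0.47). The smooth muscle mean ran from 13.16 to 13.73 at 0.5 ppm for 1 week and from 13.27 to 13.59 for 12 weeks. On water it ran from 13.35 to 13.73 and from 12.88 to 13.31. The urothelial mean ran from 12.11 to 12.43 and from 11.91 to 12.14 at 0.5 ppm. On water it ran from 11.87 to 12.06 and from 12.09 to 12.44. Shifts between the water groups thus enter these differences. Of the 8 genes that mesothelium shares with urothelium, all were negative (median -0.41), and E-cadherin, Cdh1 (-0.5 ± 0.15, adjusted p 0.0464), the membrane linker Ezr (-0.49 ± 0.14, 0.0363) and the keratin Krt18 (-0.51 ± 0.14, 0.0257) were called lower. At 10 ppm no smooth muscle or urothelial marker was called in limma, with medians of 0.21 and -0.06. Called there were Cdh1 at -0.61 ± 0.15 (adjusted p 0.0237), Cidea at 2.07 ± 0.46 (0.0124) and the liver gene Plg at 2.25 ± 0.61 (0.0464). The part of tissue makeup in the Rspo1 and Lrrn4 differences was not tested.

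The order of the 10 group means placed few neighbours apart. For Msln, Upk3b, Wt1, Gpm6a and Rspo1, none of the 9 gaps between neighbouring groups exceeded the within-group SD, and for Lrrn4 1 did, the gap of 0.25 between the 12-week 10 ppm and 0.5 ppm groups.

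Msln was highest on water at both harvests (9.98 ± 0.35 at 12 weeks and 9.97 ± 0.4 at 1 week, SD, n = 5). It was lowest at 0.5 ppm for 12 weeks (9.26 ± 0.72), 50 ppm for 1 week (9.28 ± 0.16) and 10 ppm for 12 weeks (9.33 ± 0.32). Between these came 0.5 ppm (9.94 ± 0.13, n = 4), 10 ppm (9.82 ± 0.28) and 2 ppm (9.64 ± 0.12) for 1 week, and 2 ppm (9.86 ± 0.29) and 50 ppm (9.86 ± 0.11) for 12 weeks. The low groups thus came from both harvests and from different doses.

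Wt1 was highest at 2 ppm for 12 weeks (8.66 ± 0.36), above the 12-week water group (8.4 ± 0.39). Its other groups were 10 ppm for 1 week (8.3 ± 0.14), 0.5 ppm for 12 weeks (8.17 ± 0.39), 2 ppm for 1 week (8.12 ± 0.22), 50 ppm for 12 weeks (8.06 ± 0.18), 0.5 ppm for 1 week (7.91 ± 0.29, n = 4), 50 ppm for 1 week (7.87 ± 0.6), 10 ppm for 12 weeks (7.85 ± 0.41) and 1-week water (7.78 ± 0.35). The 50 ppm group at 1 week was wide, from 6.91 to 8.48.

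Lrrn4 was highest in the 1-week groups at 0.5 ppm (8.98 ± 0.14, n = 4), 2 ppm (8.96 ± 0.2) and 10 ppm (8.9 ± 0.19). The 12-week 2 ppm (8.87 ± 0.15) and water (8.83 ± 0.32) groups followed, then the 1-week water (8.68 ± 0.3) and 50 ppm (8.61 ± 0.18) groups and 10 ppm for 12 weeks (8.58 ± 0.22). The lowest were the 12-week 0.5 ppm (8.33 ± 0.37) and 50 ppm (8.24 ± 0.23) groups, below the gap named above.

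Rspo1 was highest in the 12-week water (9.66 ± 0.22) and 2 ppm (9.65 ± 0.21) groups. Intermediate groups were 10 ppm for 1 week (9.47 ± 0.2), 50 ppm for 12 weeks (9.38 ± 0.15), 2 ppm (9.34 ± 0.31) and 0.5 ppm (9.33 ± 0.4, n = 4) for 1 week, 0.5 ppm for 12 weeks (9.14 ± 0.53) and 50 ppm for 1 week (9.12 ± 0.27). The lowest were 10 ppm for 12 weeks (8.99 ± 0.54) and 1-week water (8.85 ± 0.38). Both water groups thus lay at the ends of the order.

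Upk3b and Gpm6a showed no call at any dose or between harvests through their chosen probe sets. Group means of Upk3b ran from 13.87 (0.5 ppm for 12 weeks) to 14.14 (0.5 ppm for 1 week), the narrowest span of the 6. Those of Gpm6a ran from 8.92 (50 ppm for 1 week, with mice from 7.8 to 9.7) to 9.67 (50 ppm for 12 weeks, from 9.17 to 10.44). The second probe set of Gpm6a called no contrast, and that of Upk3b called the water contrast and the differences between harvests at 0.5 and 50 ppm (-0.48 ± 0.15, adjusted p 0.0429). The 2 probe sets of each gene correlated over arrays at r = 0.844 for Upk3b and r = 0.886 for Gpm6a.

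Among mice of the same group, Msln, Wt1, Lrrn4 and Rspo1 varied together, while Upk3b and Gpm6a did not follow them. Each array's value was taken as its deviation from its group mean, which leaves dose and harvest out, and all 15 pairs of members were compared over 49 mice with p-values from permutations within groups, adjusted over the 15 pairs. A total of 7 pairs passed, among them all 6 pairs within this foursome. The deviations share the scaling of the array, so genes on 1 array are not measured independently.

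Wt1 and Rspo1 correlated at r = 0.64 (Spearman's rho 0.6, permutation p 3e-05, adjusted 0.00045), and the relation was positive in all 10 groups. It was r = 0.69 within the 1-week and r = 0.61 within the 12-week mice, and 0.56 without the 2 mice farthest from the median. Msln and Rspo1 also gave r = 0.64 (rho 0.54, permutation p 9e-05, adjusted 0.000675), with 0.35 at 1 week and 0.8 at 12 weeks, and 0.55 without 2 mice. The second pair thus had the higher r within the 12-week mice, and the difference between harvests was not tested.

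The other 4 positive pairs were weaker. Msln and Lrrn4 gave r = 0.56 (rho 0.59, adjusted permutation p 0.00527), Lrrn4 and Rspo1 r = 0.54 (rho 0.58, 0.0034), Wt1 and Lrrn4 r = 0.48 (rho 0.48, 0.00527) and Msln and Wt1 r = 0.4 (rho 0.42, 0.0283). Without the 2 mice farthest from the median they were 0.56, 0.53, 0.54 and 0.38. Within the 1-week mice they were 0.67, 0.46, 0.47 and 0.22, and within the 12-week mice 0.52, 0.59, 0.5 and 0.52. All 4 kept their sign in both harvests.

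Upk3b and Gpm6a were inversely related, at r = -0.46 (rho -0.41, adjusted permutation p 0.00527), and r = -0.33 without 2 mice. The value was -0.57 at 1 week and -0.37 at 12 weeks. Under quantile normalization it was -0.12 with an adjusted permutation p of 0.435, so this relation depended on the scaling of the arrays. With the mean of the other 5 members, Rspo1 correlated at 0.69, Lrrn4 at 0.68, Wt1 at 0.62 and Msln at 0.56, against 0.19 for Gpm6a and 0 for Upk3b.

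**Figure D3:**
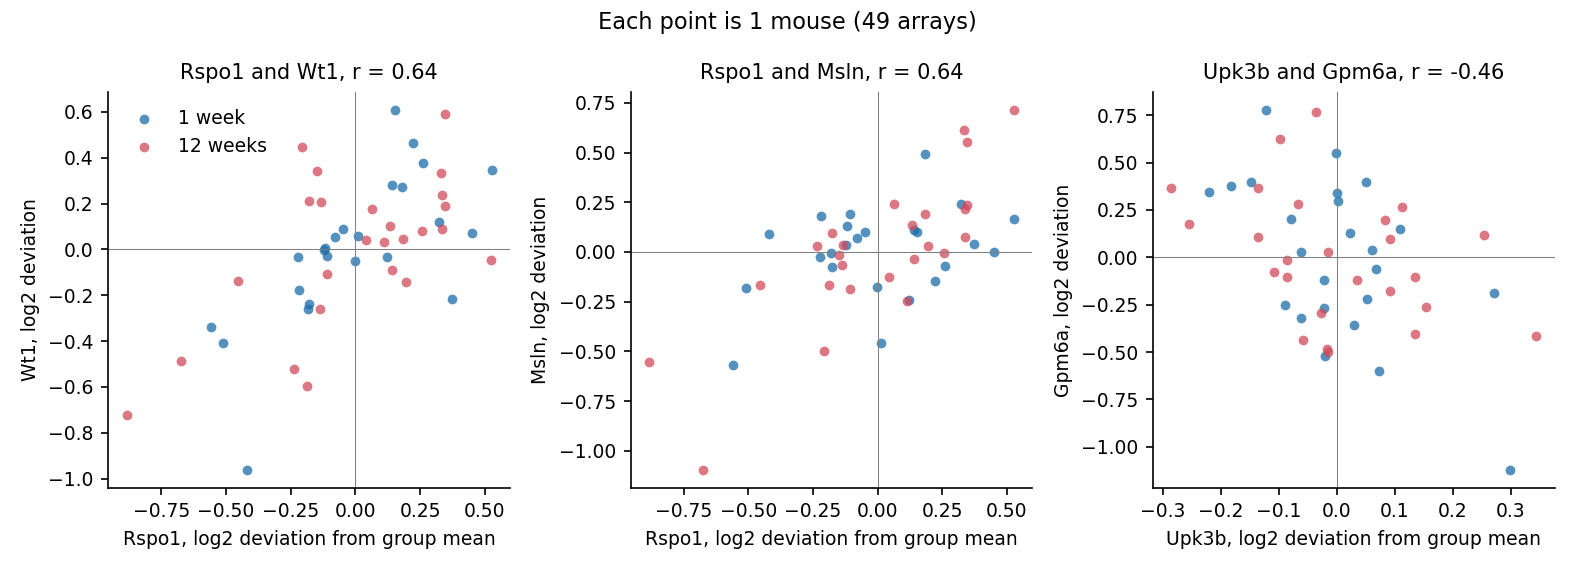
Deviation of each mouse from its group mean (log2) for 3 pairs of genes, with 1-week mice in blue and 12-week mice in red. Wt1 and Msln are higher where Rspo1 is higher (r = 0.64 each), and Gpm6a is lower where Upk3b is higher (r = -0.46), with 1 mouse at the far lower right.

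Upk3b varied with the other uroplakins and with the urothelial list, which share Upk1a, Upk2 and Upk3a. Its deviations correlated with the mean of the 5 other uroplakins at r = 0.77 (rho 0.72, adjusted permutation p 0.0003 over the 90 pairs of a member with a marker list), 0.71 without 2 mice, and with the urothelial mean at r = 0.48 (rho 0.48). Against the mean of 12 further mesothelial genes it stood at r = -0.27 (adjusted permutation p 0.302). These values hold for the arrays as scaled when deposited. The uroplakin and urothelial values are not separate evidence, since the lists overlap.

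Gpm6a went the other way, with r = -0.67 to the uroplakin mean (rho -0.7, adjusted permutation p 0.000675) and r = 0.66 to the mean of the further mesothelial genes (rho 0.63, 0.0003). Lrrn4 (r = 0.51, rho 0.45, 0.0189) and Rspo1 (r = 0.46, rho 0.46, 0.0145) also tracked that mean, while Msln (r = 0.38, 0.142) and Wt1 (r = 0.32, 0.279) did not pass. The values of Gpm6a hold for the arrays as scaled when deposited, on which its inverse relation to Upk3b depended. The genes nearest to Gpm6a, Crbn (r = 0.87), Ccdc90b (0.86) and Eif4a2 (0.85), are not on a mesothelial list. Wt1 and Rspo1 were inversely related to the smooth muscle mean, both at r = -0.48 (rho -0.44 and -0.47, adjusted 0.0266 and 0.0176). Mice whose array had a higher smooth muscle mean thus tended to read lower for these 2 genes. The part of tissue makeup in this relation was not tested.

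**Figure D4:**
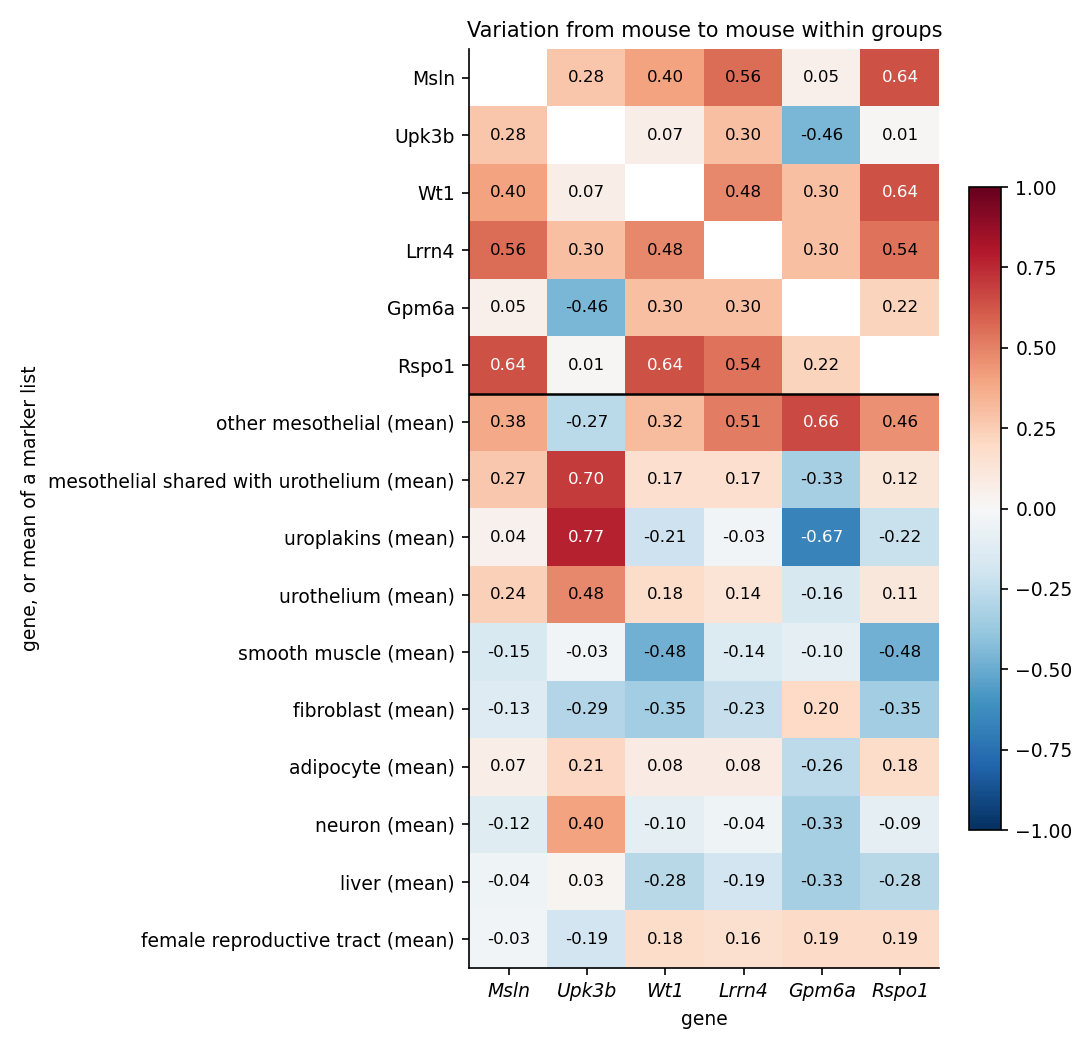
Pearson r of group-centred log2 levels over 49 mice between the 6 genes (upper block) and between each gene and the mean of a marker list (lower block), from -1 (blue) to 1 (red). Msln, Wt1, Lrrn4 and Rspo1 form a positive block (0.40 to 0.64), Upk3b pairs with the uroplakins (0.77) and Gpm6a with the further mesothelial genes (0.66).

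The gene whose variation was most like the mean of the 6 members, over 49 mice and all genes tested, was Bnc1, basonuclin 1, at r = 0.74 (0.78 at 1 week and 0.72 at 12 weeks). Bnc1 stands on the list of further mesothelial genes, as does Cldn15, a claudin, at 0.57. The rest of the 10 were Ptger3, a prostaglandin E receptor (0.72), Rhpn2 (0.7), the complement component C2 (0.69), Pcnx2 (0.68), the galectin Lgals2 (0.66), the alpha globin Hba-a2 (0.57), Cybrd1 (0.57) and Ecrg4 (0.56). None of the 10 was called in limma in any of the 15 contrasts. At 0.5 ppm for 12 weeks 9 of the 10 were negative, with a median of -0.5, and Bnc1 stood at -0.78 ± 0.22 (adjusted p 0.0728). The 10 ppm difference was negative for 9 of 10 as well, with a median of -0.64. These genes were picked for varying with the members on the same arrays, so their side is not separate evidence.

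The nearest genes of single members differed. For Msln they were Pnpla7 (r = 0.8), Pip5k1a (0.69) and Pcnx2 (0.67), for Wt1 Bnc1 (0.66), Ccser1 (0.65) and Golga7 (0.63), for Lrrn4 C2, Ptger3 and Lgals2 (0.63 each), and for Rspo1 C2 (0.72), Rhpn2 (0.66) and Pxylp1 (0.66). C2 thus headed the lists of both Lrrn4 and Rspo1. For Upk3b they were Psca, the prostate stem cell antigen (0.83), the lysosomal protease Ctsd (0.81) and the cell surface protein Bsg (0.79). For Gpm6a they were Crbn (0.87), Ccdc90b (0.86) and the translation factor Eif4a2 (0.85). These are descriptions of likeness among many genes and carry no test.

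The 12 further mesothelial genes measured, of 14 listed, gave a mixed picture between the water groups and a one-sided one in the 10 ppm difference. In the water contrast 1 rose and 2 fell: Muc16, the large mucin known as CA125, by 0.7 ± 0.2 (adjusted p 0.0124), against -0.46 ± 0.16 for Nkain4 (0.0413) and -0.3 ± 0.1 for podoplanin, Pdpn (0.0261). In the 10 ppm difference 11 of 12 were negative, with a median of -0.49, and Aldh1a2, which makes retinoic acid, was called at -0.99 ± 0.26 (adjusted p 0.0352). In the 0.5 ppm difference 11 of 12 were negative with a median of -0.23 and none was called in limma. Of all genes 13.4% were called in the water contrast, 1.37% in the 10 ppm difference and 4.61% in the 0.5 ppm difference.

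Of these 12, the 4 of highest mean level were Igfbp6, Efemp1, Pdpn and Aldh1a2, and the others named here were chosen after their values were seen. For the same difference at 10 ppm, Igfbp6, an IGF-binding protein, was at -0.05 ± 0.18, Efemp1, an extracellular matrix fibulin, at -0.54 ± 0.2, and Pdpn at -0.19 ± 0.13, none called. Bnc1 was at -0.97 ± 0.33 (adjusted p 0.13) and Muc16 at -0.82 ± 0.28 (0.125). The calretinin gene Calb2 lay below the filter, at most 6.79, and no single-gene probe set was matched to C3. Several of these genes are also made by fibroblasts, so the list is not specific to mesothelium.

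Rspo1 belongs to a pathway in which R-spondins bind the receptors Lgr4, Lgr5 and Lgr6 and keep the ubiquitin ligases Rnf43 and Znrf3 from removing WNT receptors. Of 12 such genes listed, 10 were measured. In the water contrast, in which Rspo1 rose, Nkd1, a feedback inhibitor and target of WNT signalling, fell by 0.87 (SE 0.15, adjusted p 0.00014 in limma). The other 9 were not called. A call on 1 of 10 is near the share of all genes, 13.4% called and 7.09% called lower. In the 0.5 ppm difference Nkd1 was the 1 gene called, at 0.82 ± 0.23 (adjusted p 0.0283 in limma), and at 10 ppm none was. Of all genes 4.61% and 1.37% were called in these 0.5 and 10 ppm differences. Axin2, the usual target readout, stood at -0.23 ± 0.17 in the water contrast.

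Lgr4, a receptor of Rspo1, rose at 50 ppm for 12 weeks. It lay between 10.31 and 10.76 on water and between 11.09 and 11.51 at 50 ppm, without overlap, as 3.01% of genes did in this direction. The change was 0.79 ± 0.16 (adjusted p 0.0144), and its difference between harvests was 1.11 ± 0.26 (0.00931). With the spike level as a covariate neither was called, at 0.55 ± 0.23 (adjusted p 0.393) and 0.95 ± 0.29 (0.113). Rspo1 itself was at -0.28 ± 0.21 there. Of the 4 of highest mean level, Lgr4, Nkd1, Znrf3 and Notum, Znrf3 was at 0.42 ± 0.16 (0.101), Nkd1 at -0.01 ± 0.16 and the WNT deacylase Notum at -0.15 ± 0.23. Among the other R-spondins, Rspo3 was at 0.7 ± 0.28 (0.0816) in the water contrast and Rspo2 at -0.1 ± 0.4.

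Of 12 genes listed as partners or targets of Wt1, 11 were measured. In the water contrast, in which Wt1 rose, only the growth factor Pdgfa was called, at -0.49 ± 0.14 (adjusted p 0.0149 in limma). There 8 of 11 were negative. A call on 1 of 11 is near the share of all genes, 13.4% called and 7.09% called lower. In the 0.5 ppm difference, where 4.61% of all genes were called, Pdgfa was called at 0.73 ± 0.2 (adjusted p 0.0292 in limma). At 10 ppm, Aldh1a2 was the 1 gene called in the difference between harvests, where 1.37% of all genes were. Again 8 of 11 were negative, with a median of -0.31. Aldh1a2 and Tbx18 also stand on the list of further mesothelial genes, so this call was already given there. At 50 ppm for 12 weeks, where Wt1 was at -0.34 ± 0.21, Spry1, an inhibitor of receptor tyrosine kinase signalling, fell by 0.63 (SE 0.15, adjusted p 0.024), and with the spike level as a covariate it was not called (-0.38 ± 0.21, adjusted p 0.566). At that dose and harvest 4.06% of all genes were called. The 4 of highest level in this list were Gas1, Tcf21, Aldh1a2 and Spry1. In the 10 ppm difference Gas1 was at -0.26 ± 0.19, the mesenchymal transcription factor Tcf21 at -0.36 ± 0.15 and Spry1 at -0.29 ± 0.2, none called.

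Upk3b was set beside the other uroplakins, the membrane proteins that form plaques on the luminal face of the bladder. In the 0.5 ppm difference all 6 uroplakins were negative, with a median of -0.38. There 4.61% of all genes were called, and Upk3a was called at -0.51 ± 0.15 (adjusted p 0.0316 in limma). Upk3b stood at -0.37 ± 0.14, beside Upk2 at -0.38 ± 0.14, Upk1b at -0.38 ± 0.14 and Upk1a at -0.25 ± 0.13. This value is from its brighter probe set, and the other one gave -0.72 ± 0.16, below all uroplakins named here. With the spike level as a covariate Upk3a was at -0.42 ± 0.13 (adjusted p 0.0619). In the 10 ppm difference, where Rspo1 changed most among the members, 3 uroplakins were positive and 3 negative, with a median of -0.04.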

How the data were processed

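Each deposited value is an intensity on a linear scale for 1 probe set on 1 array. Per the submitters' processing notes GCOS 1.0, the Affymetrix operating software, was used, and its settings are not stated. The table covers 45101 probe sets, 64 of them controls. By the platform's annotation, 34945 probe sets name exactly 1 gene and were used, 932 name several and 9160 name none. Values were compared as deposited, as log2(signal + 16). Genes had to exceed their array's 40th percentile on 4 or more arrays.

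Each harvest was fitted alone in R 4.3.3 with limma 3.58.1, using lmFit and an eBayes step with an intensity trend, and a dose trend was a slope over dose ranks. Differences between harvests and the water contrast used all 49 arrays. Correlations were computed in Python 3.11.15 with 100000 permutations within groups. The fits were tested on simulated data. The number of arrays limits the precision. P-values measure the spread between mice.

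The members, the gene lists and the tests were chosen with earlier results of these data known. Named genes were the members, the 10 genes most like their mean, the 3 most like each member and, for the lists on Rspo1, Wt1, the uroplakins and further mesothelial genes, called genes and the 4 of highest mean level. Other lists are given by counts with examples, and genes named outside this rule were chosen after their values were seen. Alternatives were other offsets (1 and 64), quantile normalization, no filter or a filter at the 60th percentile, the mean of a gene's probe sets, 1 fit of all samples, array weights, a covariate (the poly-A spike level, or the RNA integrity number, which leaves out the 2 arrays without one), the replicate number as a block and single arrays left out. Leaving out the 3 arrays of integrity under 8 was added after seeing the data.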

Additional observations from a re-analysis of the deposited data

Results flagged for a closer look

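Within groups of 4 or 5 mice, 3 of 60 combinations of a member and a group held a mouse far from the others by Dixon's test, where chance gives about 1 in 20. Msln was lowest at 8.77 in replicate 2 of the 10 ppm group at 12 weeks, and Wt1 was lowest at 7.13 in the same mouse. Msln was highest at 10.59 in replicate 4 of the 12-week water group.

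The difference from water changed between the 1-week and 12-week harvests for 2 members, by the test of that change itself in limma. For Rspo1 the change was -1.29 at 10 ppm and -1.01 at 0.5 ppm, and for Lrrn4 it was -0.8 at 0.5 ppm. With 1 mouse left out, the 0.5 ppm calls held in 8 of 19 fits for Rspo1 and 12 of 19 for Lrrn4. The rise of Rspo1 between the water groups enters its values. Age and length of treatment cannot be told apart between the harvests.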

How the results depend on the processing

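No called value on a member changed sign under any alternative. The number of members called in the water contrast went from 2 to 1 with an offset of 1, no filter, the mean of probe sets, the integrity number as a covariate or without the arrays of integrity under 8. In the 10 ppm difference it went from 1 to 2 under quantile normalization or array weights. In the 50 ppm difference it went from 0 to 1 and 2 under the same settings. At 50 ppm for 12 weeks it went from 1 to 0 with no filter, the mean of probe sets or either covariate, and at 0.5 ppm in the difference from 2 to 1 with no filter. With the mean of probe sets that count stayed at 2, with Upk3b called and Rspo1 not. At 50 ppm for 1 week it went from 1 to 0 with all samples in 1 fit. At 0.5 ppm for 12 weeks it went from 0 to 1 in that fit, and at 10 ppm for 1 week from 0 to 2 with array weights. Of 7 pairs of members that correlated, 2 passed with the 1-week mice alone and 3 with the 12-week mice alone. The cause of these shifts was not tested. The correlations within 1 harvest also held fewer mice, 24 at 1 week and 25 at 12 weeks.

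With single arrays left out, the counts ran from 0 to 3 in the 0.5 ppm difference, from 1 to 2 in the 10 ppm difference and the water contrast, and from 0 to 1 at 50 ppm in either harvest, at 0.5 ppm for 12 weeks and in the 1-week trend, and stayed at 0 in the other contrasts. Counts over all genes moved more. At 50 ppm for 12 weeks 594 genes were called, 47 to 1617 with single arrays left out and 1 (spike level as a covariate) to 1331 (array weights) under the other settings. For the 0.5 ppm difference the count was 674, with 260 to 1003 and 478 to 1765, for the 10 ppm difference 201, with 108 to 339 and 118 to 771, and for the 50 ppm difference 1076, with 484 to 1799 and 64 to 1315. For the water contrast it was 1953, with 1335 to 2058 and 1660 to 3219, and for 50 ppm at 1 week 49, with 23 to 82 and 48 to 248. It was 114 at 10 ppm for 1 week (20 to 437 and 72 to 1262), 77 at 0.5 ppm for 12 weeks (0 to 485 and 0 to 534), 49 at 10 ppm for 12 weeks (9 to 331 and 10 to 497), 39 for the 1-week trend (10 to 83 and 21 to 116), 769 for the 12-week trend (273 to 1892 and 0 to 1732) and 7 at 0.5 ppm for 1 week (0 to 34 and 0 to 401).

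Same-numbered mice did not vary together, with 10 of 96 pairs above r = 0.1 and a median of 0.00227, so the numbers were not taken as a pairing. With the replicate number as a block, Msln at 50 ppm for 1 week had an adjusted p of 0.0513 in limma and the count there was 0, and no other call on a member changed. Quantile normalization moved 1 of 60 group levels by more than the spread between mice, and the mean of probe sets moved 17.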
